A study of Mus musculus with 9 samples.

Results

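The iron storage and transport genes examined here were 9 mouse genes, Fth1, Ftl1, Slc40a1, Tfrc, Slc11a1, Slc11a2, Ireb2, Aco1 and Ncoa4, chosen by symbol for their roles in iron storage, export, uptake and regulation in macrophages. They were 9 of the 21890 protein-coding genes in the count table, and 9 of 9 passed the low-count filter that left 12538 of these genes for testing. RNA was sequenced from CD11b+ cells that were flow-sorted from the tumor-bearing hemisphere of male C57BL/6J mice, 10 to 12 weeks old at the start, after GL261 glioma cells expressing luciferase and tdTomato had been placed in the right striatum. Mice of all 4 groups were implanted. The control mice (CTR, 2 libraries) received saline by gavage. The OAT-1746 mice (2 libraries) received an oral inhibitor of arginases 1 and 2 at 50 mg/kg, 2 times a day from day 1. The anti-PD-1 mice (2 libraries) received an antibody against the checkpoint receptor PD-1 at 2.5 mg/kg by injection into the peritoneum, given on days 8, 10, 12 and 14. The COMB mice (3 libraries) received both agents. For anti-PD-1 replicate 2, the treatment field reads PD-2 in place of PD-1, and the library was grouped by its title. The methods give day 28 for tissue collection and a legend gives day 21. The libraries held 13048075 to 18796479 counts. Itgam, which encodes CD11b, stood at 294 to 446 CPM (counts scaled to library size by TMM) over the 9 libraries.

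Iron enters macrophages bound to transferrin through the transferrin receptor, as heme from engulfed red cells, or as ferrous iron moved across endosomal membranes. What is not used is stored in ferritin, a shell of heavy and light chains, or leaves the cell through ferroportin. Iron regulatory proteins bind hairpins called iron-responsive elements in the transcripts of these genes: bound near the 5′ end they hold back translation, and bound in the 3′ UTR of the transferrin receptor transcript they protect it from decay. Much of this control acts on translation and is not seen in transcript counts.

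The iron-responsive element was searched for in the annotated UTRs, because it is a regulatory sequence that some storage, export and uptake genes share. The pattern was an unpaired C, 5 bases, the loop CAGTGN and 5 bases that pair with the first 5, with G-U pairs allowed, on the transcript's own strand. In the GENCODE M21 transcripts it was found in the 5′ UTR of 31 of 20971 protein-coding genes (0.148%) and in the 3′ UTR of 144 of 21124 genes (0.682%). Fth1, Ftl1 and Slc40a1 each held 1 match in the 5′ UTR, and Tfrc held 4 in the 3′ UTR. Slc11a2 held none with all 5 pairs, but 1 in its 3′ UTR when 1 pair was allowed to fail, a rule that 4.77% of genes met in the 3′ UTR. No match was found in these UTRs of Slc11a1, Ireb2, Aco1 or Ncoa4. The matches are printed 5′ to 3′ on the transcript strand with 6 flanking bases on each side, the loop in capitals and GRCm38 coordinates.
Fth1 5′ UTR, chr19:9982732-9982760, plus strand: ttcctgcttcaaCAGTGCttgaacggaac
Ftl1 5′ UTR, chr7:45459779-45459807, minus strand: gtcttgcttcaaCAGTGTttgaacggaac
Slc40a1 5′ UTR, chr1:45925465-45925493, minus strand: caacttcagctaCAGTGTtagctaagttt
Tfrc 3′ UTR, chr16:32631219-32631247, plus strand: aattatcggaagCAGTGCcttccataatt
Tfrc 3′ UTR, chr16:32631598-32631626, plus strand: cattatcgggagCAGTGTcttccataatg
Tfrc 3′ UTR, chr16:32631663-32631691, plus strand: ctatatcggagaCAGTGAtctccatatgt
Tfrc 3′ UTR, chr16:32631710-32631738, plus strand: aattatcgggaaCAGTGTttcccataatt
Slc11a2 3′ UTR, 1 pair failing, chr15:100395153-100395181, minus strand: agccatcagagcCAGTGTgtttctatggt
The Slc40a1 match lay in 1 of 4 transcripts with an annotated 5′ UTR, the Tfrc matches in 1 of 2 transcripts with a 3′ UTR and the Slc11a2 match in 1 of 4. A match describes the letters only. Binding by a regulatory protein was not measured.

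The libraries differed in more than iron genes. OAT-1746 replicate 2 stood apart from OAT-1746 replicate 1, and COMB replicate 1 from COMB replicates 2 and 3. The summed level of 10 monocyte and macrophage markers (most abundant gene Tgfbi) was 8681 and 8089 CPM in CTR, 6280 and 923 in OAT-1746, 8208 and 9623 in anti-PD-1, and 6183, 9591 and 9872 in COMB. Tgfbi was much of this sum: the other 9 genes summed to 2978 and 3791 CPM in CTR and to 3660 and 557 in OAT-1746, so OAT-1746 replicate 1 lay within the CTR range without it. The summed level of 9 homeostatic microglia markers (most abundant of these Cx3cr1) was 9790 and 15799.5 CPM in CTR, 21837 and 27578 in OAT-1746, 14841 and 12589.5 in anti-PD-1, and 18250, 13053 and 12467 in COMB. Mitochondrial transcripts took 1.32% and 1.10% of counts in CTR, 2.46% and 2.26% in OAT-1746, 0.779% and 1.43% in anti-PD-1, and 1.61%, 0.81% and 0.931% in COMB. In sorted bulk samples, fewer cells of a type and less RNA per cell cannot be told apart. The part of cell composition in the iron gene values was not tested.

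Ferritin transcripts were the most abundant of the 9 per length of exon. Per kilobase of annotated exon, the mean level over 9 libraries was 2226 CPM for Fth1, the heavy chain with ferroxidase activity, and 1486 for Ftl1, the light chain. Slc11a1, which moves divalent metal ions out of phagosomes, followed at 140.5 CPM per kb. Aco1 was at 14.1, Slc40a1 at 10.1, Ncoa4 at 9.09, Slc11a2 at 6.06, Ireb2 at 5.22 and Tfrc at 3.64 CPM per kb. The ranges over libraries overlapped between Fth1 and Ftl1, between Aco1 and Slc40a1, between Slc40a1 and Ncoa4, and between Slc11a2 and Ireb2. The other neighbours in the order did not overlap. With the length of the principal transcript in place of all exons, Slc40a1 came to rank 4, Ncoa4 to rank 5 and Aco1 to rank 6, and the other 6 genes kept their ranks.

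Fth1 stood at 8262 and 8965 CPM in CTR, 6021 and 2023 in OAT-1746, 6178 and 7924 in anti-PD-1, and 6345, 12473 and 11304 in COMB. OAT-1746 replicate 2 was the lowest library and COMB replicate 2 the highest, 6.17 times as high. Ftl1 stood at 2373 and 2025 CPM in CTR, 1372 and 536 in OAT-1746, 2276 and 2455 in anti-PD-1, and 1816, 2643 and 2421 in COMB. For Fth1 and for Ftl1, both OAT-1746 libraries lay below the other 7 libraries. Within OAT-1746 the libraries differed 2.98 times for Fth1 and 2.56 times for Ftl1, against 1.09 and 1.17 times within CTR. Fth1 and Ftl1 together took 1.01% and 1.05% of all counts in CTR, 0.731% and 0.266% in OAT-1746, 0.845% and 0.98% in anti-PD-1, and 0.843%, 1.42% and 1.31% in COMB. The ratio of Fth1 to Ftl1 counts was 3.48 and 4.43 in CTR, 4.39 and 3.77 in OAT-1746, 2.71 and 3.23 in anti-PD-1, and 3.49, 4.72 and 4.67 in COMB. It ran from 2.71 in anti-PD-1 replicate 1 to 4.72 in COMB replicate 2, so the share of the heavy chain varied less than the ferritin level.

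**Figure D1:**
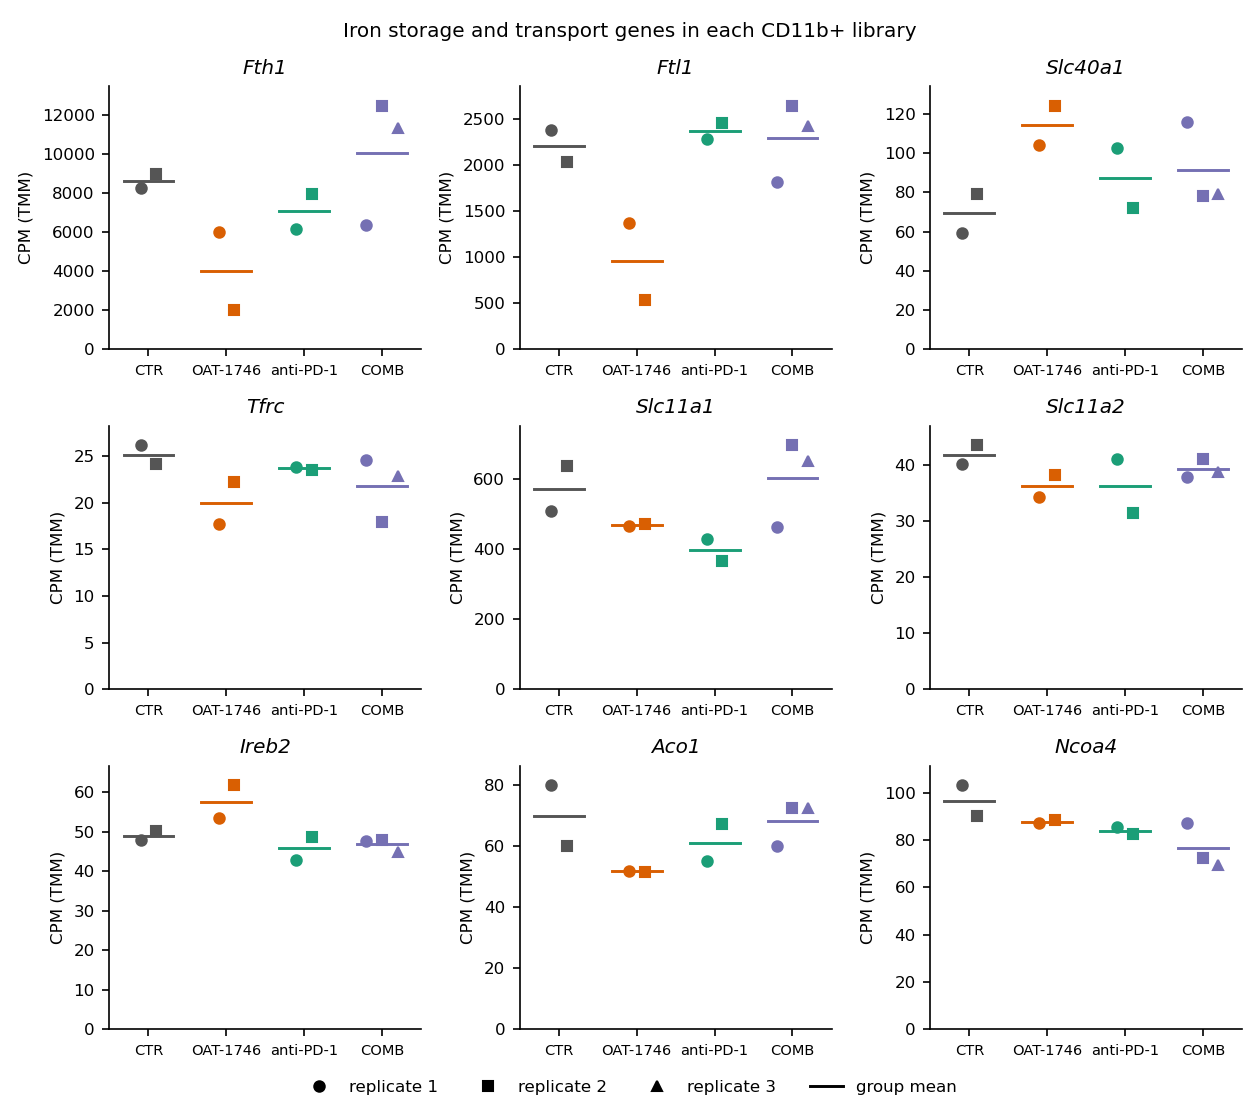
TMM-scaled CPM (vertical axis, starting at 0) of each of the 9 genes in each of the 9 libraries, by group; symbols mark the replicate number and bars the group mean. Fth1 and Ftl1 are lowest in OAT-1746 replicate 2 (2023 and 536 CPM), and COMB replicate 1 lies below COMB replicates 2 and 3 for both.

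Slc40a1 encodes ferroportin, the iron exporter. Its level was 59.3 and 79.3 CPM in CTR, 104.2 and 124.2 in OAT-1746, 102.6 and 72.0 in anti-PD-1, and 116.0, 78.2 and 79.1 in COMB. Both OAT-1746 libraries lay above both CTR libraries, and the anti-PD-1 and COMB libraries overlapped CTR. Per 1000 Fth1 counts, the library had 7.18 and 8.85 Slc40a1 counts in CTR, 17.3 and 61.4 in OAT-1746, 16.6 and 9.08 in anti-PD-1, and 18.3, 6.27 and 6.999 in COMB. The ratio was thus highest in OAT-1746 replicate 2 and lowest in COMB replicate 2.

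The uptake genes varied less than ferritin. Tfrc, the transferrin receptor, was at 26.1 and 24.1 CPM in CTR, 17.8 and 22.3 in OAT-1746, 23.8 and 23.5 in anti-PD-1, and 24.6, 17.9 and 22.8 in COMB. Slc11a2, the divalent metal transporter of endosomes, was at 40.2 and 43.5 CPM in CTR, 34.3 and 38.2 in OAT-1746, 41.2 and 31.4 in anti-PD-1, and 37.9, 41.1 and 38.7 in COMB. Slc11a1 (Nramp1) was at 507 and 637 CPM in CTR, 465 and 470.4 in OAT-1746, 429.6 and 365 in anti-PD-1, and 463, 695 and 651 in COMB. Both anti-PD-1 libraries lay below all other libraries for Slc11a1. The highest library was 1.90 times the lowest for Slc11a1, 1.47 times for Tfrc and 1.38 times for Slc11a2.

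Aco1 and Ireb2 encode the iron regulatory proteins, and Ncoa4 the receptor that carries ferritin to lysosomes for breakdown. Aco1 was at 80.0 and 60.0 CPM in CTR, 51.9 and 51.7 in OAT-1746, 55.0 and 67.3 in anti-PD-1, and 60.2, 72.5 and 72.5 in COMB. Ireb2 was at 47.9 and 50.1 CPM in CTR, 53.5 and 61.7 in OAT-1746, 42.9 and 48.6 in anti-PD-1, and 47.8, 47.8 and 44.8 in COMB. Ncoa4 was at 103.1 and 89.99 CPM in CTR, 87.1 and 88.4 in OAT-1746, 85.4 and 82.6 in anti-PD-1, and 87.4, 72.5 and 69.5 in COMB. For Aco1 both OAT-1746 libraries were below the other 7 libraries, for Ireb2 both were above them, and for Ncoa4 both CTR libraries were above them. Over the 9 libraries the coefficient of variation was 40.2% for Fth1, 33.6% for Ftl1, 24.2% for Slc40a1 and 21.8% for Slc11a1. It ran from 9.64% (Slc11a2) to 15.9% (Aco1) for the other 5 genes, against a median of 19.3% over the 9418 tested genes with a mean of at least 5 CPM.

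The comparison of OAT-1746 with CTR asks what the arginase inhibitor alone did to these cells. Ferritin was lower and ferroportin higher in the OAT-1746 libraries, and no gene of the table passed the threshold in edgeR (adjusted p under 0.05). Ftl1 differed by a log2 fold change of -1.20 (SE 0.38, 95% CI -2.06 to -0.35, adjusted p = 0.0833, edgeR) and Fth1 by -1.10 (SE 0.47, 95% CI -2.17 to -0.03, adjusted p = 0.147, edgeR). Slc40a1 differed by 0.72 (SE 0.26, adjusted p = 0.103) and Aco1 by -0.43 (SE 0.18, adjusted p = 0.143), the last by -0.21 and -0.63 without CTR replicates 1 and 2. The other 5 genes lay between -0.33 (Tfrc) and 0.23 (Ireb2). edgeR called 0 of 9 iron genes, where it called 0% of all genes tested. At an unadjusted p under 0.05 it gave 4 of 9 iron genes (Fth1, Ftl1 and Aco1 lower, Slc40a1 higher) against 32.3% of all genes. DESeq2 called 1 of 9, Ftl1, against 15.9% of all genes (1996), and limma voom called 0 of 9 against 0%. The libraries of the 2 groups did not overlap for 9 of 9 iron genes (7 lower, 2 higher), where they did not for 62.9% of all genes. The median log2 fold change was -0.29 over the 9 genes and 0.01 over all genes. The ferritin values rested on OAT-1746 replicate 2. Without it Fth1 differed by -0.50 and Ftl1 by -0.66, and without OAT-1746 replicate 1 by -2.09 and -2.04. Each of these fits held a lone OAT-1746 library, which has no spread of its own. Without COMB replicate 1 edgeR called 278 genes. In OAT-1746 replicate 2 the monocyte and macrophage markers were also lowest.

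**Figure D2:**
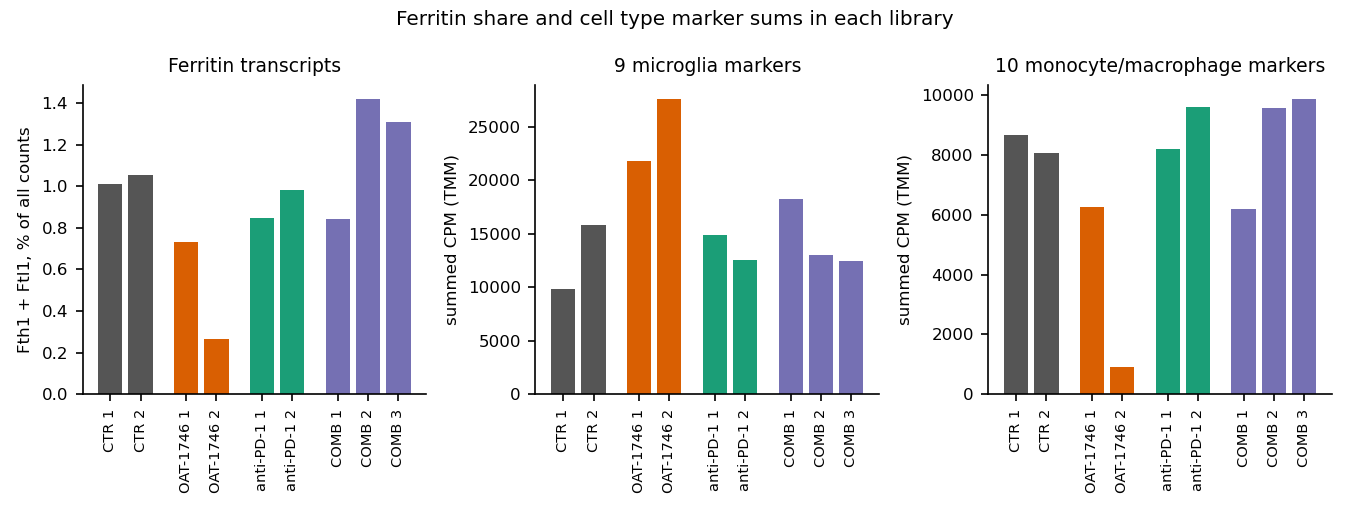
Bars give, for each library, the percentage of all counts from Fth1 and Ftl1 (left) and the summed CPM of 9 microglia markers (middle) and 10 monocyte and macrophage markers (right); colors mark the groups and all axes start at 0. OAT-1746 replicate 2 has the lowest ferritin share (0.266%), the highest microglia sum (27578 CPM) and the lowest monocyte and macrophage sum (923 CPM).

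The comparison of anti-PD-1 with CTR asks what the antibody alone did. No iron gene was called. Slc11a1 had the largest difference of the 9, a log2 fold change of -0.53 (SE 0.22, 95% CI -1.03 to -0.02, adjusted p = 0.951, edgeR), with both anti-PD-1 libraries below both CTR libraries. Slc40a1 differed by 0.33 (SE 0.26), Fth1 by -0.29 (SE 0.47) and Ftl1 by 0.11 (SE 0.37). With a library left out, Slc40a1 ran from 0.02 to 0.56 and Fth1 from -0.50 to -0.16. edgeR called 0 of 9 iron genes and 0% of all genes, limma voom 0 of 9 and 0%, and DESeq2 0 of 9 and 0.112%. Before adjustment, 1 of 9 iron genes (Slc11a1) and 5.12% of all genes had a p under 0.05. The libraries did not overlap for 4 of 9 iron genes (Fth1, Tfrc, Slc11a1 and Ncoa4, all lower) and for 37.6% of all genes. The 95% CI for Fth1 ran from -1.35 to 0.77.

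The comparison of COMB with CTR asks what both agents did together. The 9 genes lay between -0.34 and 0.39 in log2 fold change, and none was called. Ncoa4 differed by -0.34 (SE 0.14, 95% CI -0.66 to -0.02, adjusted p = 0.752, edgeR), with all 3 COMB libraries below both CTR libraries. Slc40a1 differed by 0.39 (SE 0.24), Fth1 by 0.22 (SE 0.43) and Ftl1 by 0.06 (SE 0.34). With a library left out, Slc40a1 ran from 0.16 to 0.62 and Fth1 from 0.03 to 0.44. edgeR called 0 of 9 iron genes and 0% of all genes, DESeq2 0 of 9 and 0.279%, and limma voom 0 of 9 and 0.016%. Unadjusted, 1 of 9 iron genes (Ncoa4) and 6.58% of all genes had a p under 0.05. The libraries did not overlap for 2 of 9 iron genes (Ireb2 and Ncoa4, both lower) and for 27.9% of all genes.

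The comparison of COMB with anti-PD-1 asks what the inhibitor did in mice that also had the antibody. Slc11a1 was higher in all 3 COMB libraries than in both anti-PD-1 libraries, with a log2 fold change of 0.60 (SE 0.21, 95% CI 0.13 to 1.07, adjusted p = 0.589, edgeR). Fth1 differed by 0.51 (SE 0.43), and the other 7 genes lay between -0.14 and 0.16. With a library left out, Fth1 ran from 0.32 to 0.76. edgeR called 0 of 9 iron genes and 0% of all genes. DESeq2 called 0 of 9 and 0.375% of all genes, a larger share than the 0.279% that limma voom called, which had 0 of 9. At an unadjusted p under 0.05, 1 of 9 iron genes (Slc11a1) and 7.23% of all genes were found. The libraries did not overlap for 1 of 9 iron genes and for 26.4% of all genes. Without OAT-1746 replicate 1 or 2, which are in neither group, edgeR called 43 or 38 genes here.

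The comparison of COMB with OAT-1746 asks what the antibody did in mice that also had the inhibitor. Ftl1 was higher in COMB, with a log2 fold change of 1.27 (SE 0.36, 95% CI 0.46 to 2.07, adjusted p = 0.0444, edgeR), a fold of 2.40. Fth1 was 1.32 higher (SE 0.45, 95% CI 0.31 to 2.33) and missed the threshold (adjusted p = 0.0703, edgeR). All 3 COMB libraries lay above both OAT-1746 libraries for both chains. Aco1 differed by 0.40 (SE 0.17, adjusted p = 0.122), Slc11a1 by 0.37 (SE 0.21, adjusted p = 0.224) and Ireb2 by -0.30 (SE 0.13, adjusted p = 0.126). edgeR called 1 of 9 iron genes, where it called 15.8% of all genes (1979), so the count of iron genes was near the background. The split over all genes was 858 higher and 1121 lower in edgeR, and it turned to 1651 and 1411 in DESeq2, to 1157 and 1106 with no low-count filter and to 2331 and 1727 without OAT-1746 replicate 1. DESeq2 called 2 of 9 (Fth1 and Ftl1) against 24.4%, and limma voom 2 of 9 (Fth1 and Ftl1) against 22.4%. At an unadjusted p under 0.05, 4 of 9 iron genes (Fth1, Ftl1 and Aco1 higher, Ireb2 lower) and 37.1% of all genes were found. The libraries did not overlap for 4 of 9 iron genes (3 higher, 1 lower) and for 54% of all genes.

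The call of Ftl1 in COMB against OAT-1746 depended on the libraries in the fit and on other settings. Its adjusted p in edgeR was 0.0678 and 0.0679 without CTR replicates 1 and 2, 0.176 without OAT-1746 replicate 2 (log2 fold change 0.72), 0.142 and 0.135 without COMB replicates 2 and 3, and 0.0682 and 0.0681 without anti-PD-1 replicates 1 and 2. Without OAT-1746 replicate 1, which left a lone library in that group, the log2 fold change was 2.10. The adjusted p in edgeR was 0.0372 without COMB replicate 1. The GC and length correction gave a log2 fold change of 0.89 (adjusted p = 0.0652), and a fit of only the groups compared gave 1.27 (adjusted p = 0.104). The call was kept when scaled by DESeq2 size factors or by library size (adjusted p = 0.0452 and 0.0398). Over 20 alternatives the log2 fold change of Ftl1 ran from 0.72 to 2.10 and the adjusted p from 0.00174 to 0.258, with 9 calls. That of Fth1 ran from 0.72 to 2.31 with 5 calls. The count of 1979 genes itself was 847 and 845 without either CTR replicate, 4058 and 27 without OAT-1746 replicates 1 and 2, 2918, 14 and 1 without COMB replicates 1, 2 and 3, and 666 and 660 without either anti-PD-1 replicate.

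**Figure D3:**
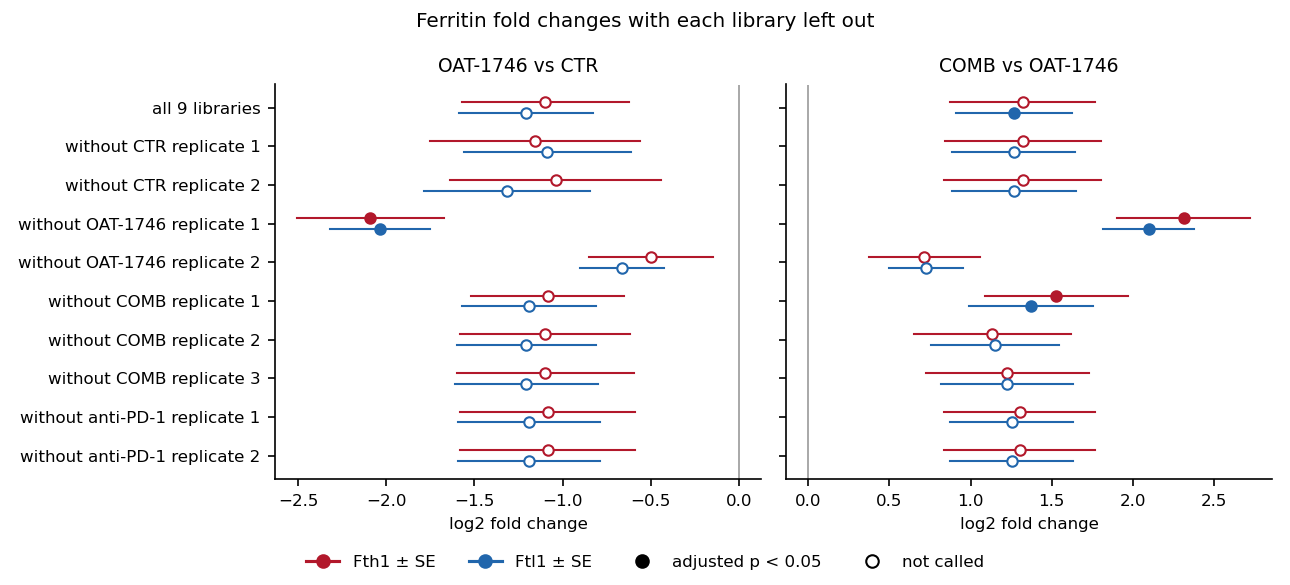
Log2 fold changes of Fth1 (red) and Ftl1 (blue) with their SE (lines) in OAT-1746 against CTR (left) and COMB against OAT-1746 (right), with all 9 libraries and with each library left out in turn; filled points had an adjusted p under 0.05 in edgeR. The direction held in all 9 fits that left out a library, while the size moved from -2.09 to -0.50 for Fth1 in OAT-1746 against CTR.

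**Figure D4:**
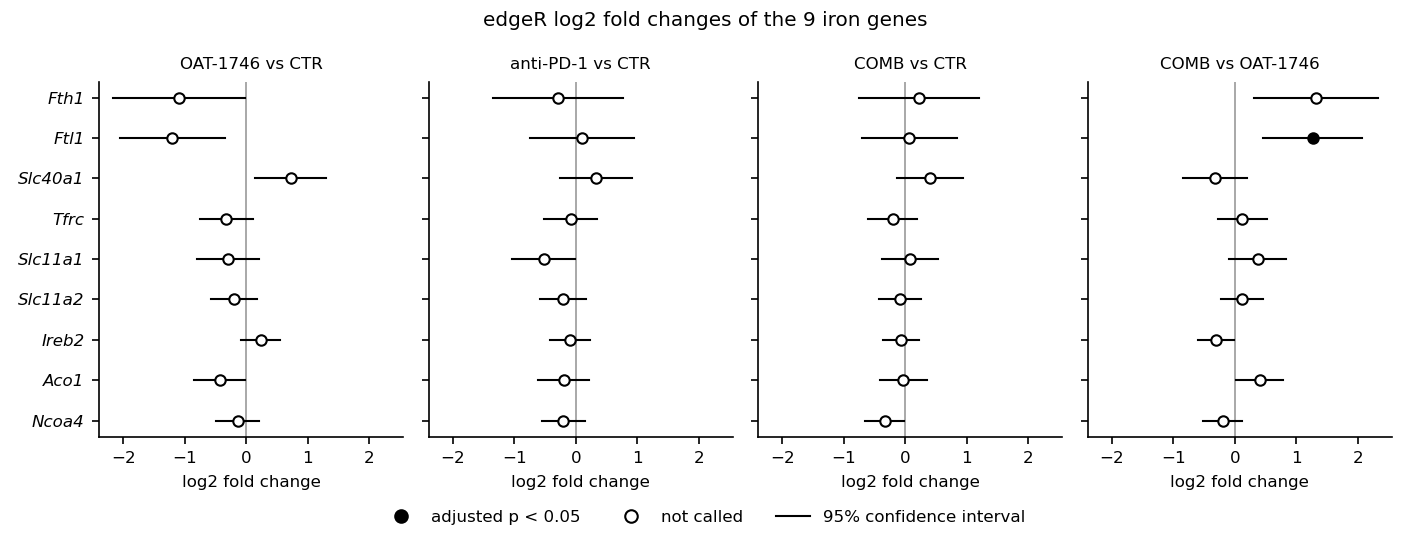
Log2 fold changes of the 9 genes with 95% confidence intervals in 4 comparisons from the edgeR fit; the filled point was called. Ftl1 in COMB against OAT-1746 (1.27) is the filled point, and the intervals of Fth1 and Ftl1 are the widest in each comparison.

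Whether the effect of OAT-1746 differed between mice with and without the antibody was tested as an interaction. Fth1 had an interaction of 1.61 on the log2 scale (SE 0.64, adjusted p = 0.161, edgeR), Ftl1 of 1.16 (SE 0.51, adjusted p = 0.189), Slc11a1 of 0.89 (SE 0.30, adjusted p = 0.128) and Aco1 of 0.59 (SE 0.25, adjusted p = 0.176). That of Aco1 was 0.37 and 0.79 without CTR replicates 1 and 2. edgeR called 0 of 9 iron genes and 0.359% of all genes, DESeq2 0 of 9 and 8.18%, and limma voom 0 of 9 and 3.41%. At an unadjusted p under 0.05, 4 of 9 iron genes (Fth1, Ftl1, Slc11a1 and Aco1, all positive) and 26.2% of all genes were found. The interaction values of Fth1 and Ftl1 were 2.6 and 1.99 without OAT-1746 replicate 1, and 1.03 and 0.64 without OAT-1746 replicate 2. In the test for any difference among the 4 groups, edgeR called 0 of 9 iron genes and 0.191% of all genes, limma voom 0 of 9 and 3.16%, and DESeq2 1 of 9 and 16.9%. At an unadjusted p under 0.05 this test gave 1 of 9 (Ftl1) and 27.7% of all genes. edgeR called 24 genes in this test, 2399 and 2 without OAT-1746 replicates 1 and 2, 199 without COMB replicate 1 and 0 without COMB replicate 2 or 3 or either CTR replicate.

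The other genes of iron handling were taken as 58 genes in 5 lists, of which 50 were tested. In OAT-1746 against CTR edgeR called 0 of the 50, DESeq2 9 (3 higher, 6 lower) and limma voom 0, against 0%, 15.9% and 0% of all genes. An unadjusted p under 0.05 in edgeR was seen for 19 of the 50 (8 higher, 11 lower), against 32.3% of all genes, so both shares were near the background. Their median log2 fold change was -0.15, against 0.01 over all genes. In COMB against OAT-1746 edgeR called 6 of the 50, of which 5 were higher and 1 lower, against 15.8% of all genes, so the count was not above the background. The median of the 50 was 0.24 against 0.00 over all genes. With size factors from DESeq2 in edgeR the split was 7 higher and 0 lower. The count of the 50 was 12 without COMB replicate 1, where edgeR called 2918 of all 12538 genes. It was 0 without COMB replicate 2 or 3, where edgeR called 14 and 1 of all genes. The median of the 50 was 0.24 and 0.14 without OAT-1746 replicates 1 and 2. In anti-PD-1 against CTR, COMB against CTR and COMB against anti-PD-1, edgeR, DESeq2 and limma voom called 0 of the 50, with 2, 2 and 3 at an unadjusted p under 0.05 in edgeR, against 5.12%, 6.58% and 7.23% of all genes.

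Of the heme list (10 tested of 11), the genes that take up, break down and move heme, 9 of 10 were lower in OAT-1746 than in CTR, with a median log2 fold change of -0.74, where 6207 of all 12538 genes were lower. edgeR called 0 of the 10 there, and 0% of all genes. An unadjusted p under 0.05 in edgeR was seen for 5 of the 10 (1 higher, 4 lower), against 32.3% of all genes. With no overlap between the libraries, 5 of the 10 were lower in OAT-1746 and 1 was higher. Over all 12538 genes, 4027 were lower and 3863 higher in this way. The 10 monocyte and macrophage markers, whose sums are given above, had a median of -0.88 with 0 of 10 higher, and their part in these values was not tested. Hmox1, which opens the heme ring and frees its iron, was at 217.8 and 209.8 CPM in CTR, 110.8 and 91.4 in OAT-1746, 305.5 and 186.4 in anti-PD-1, and 134.3, 302.3 and 288.6 in COMB. It rose in COMB against OAT-1746 by 1.26 on the log2 scale (SE 0.35, adjusted p = 0.0435, edgeR) and differed by -1.08 (SE 0.37, adjusted p = 0.0963) in OAT-1746 against CTR. Slc48a1, the heme transporter of lysosomes, and Blvra, a biliverdin reductase, rose by 0.92 (SE 0.19, adjusted p = 0.0274) and 1.05 (SE 0.23, adjusted p = 0.0288) in COMB against OAT-1746. The call of Hmox1 was lost without CTR replicates 1 and 2 (adjusted p = 0.0678 for each), anti-PD-1 replicates 1 and 2 (0.0545 and 0.0546), OAT-1746 replicate 2 (0.223), and COMB replicates 2 and 3 (0.143 and 0.139), and with the GC and length correction (0.0804). Those of Slc48a1 and Blvra were lost without OAT-1746 replicate 2 (0.161 for each), COMB replicate 2 (0.106 and 0.109) and COMB replicate 3 (0.11 and 0.113). Blvra is named because it was called and was chosen after its values were seen. Cd163, the receptor for haptoglobin-bound hemoglobin and also a marker of border-associated macrophages, was the 1 heme gene that was higher in OAT-1746 than in CTR (0.93, SE 0.31, adjusted p = 0.0919). In anti-PD-1 against CTR Cd163 differed by 0.68 (SE 0.31, adjusted p = 0.951, edgeR), at 40.4 and 23.7 CPM against 16.5 and 23.5. Hpx was at the floor of the assay and was not tested. In COMB against CTR the median of the list was 0.08.

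Of the uptake list (12 tested of 14), 9 of 12 lay above CTR in OAT-1746, with a median of 0.49. Over all genes, 6331 of 12538 lay above. edgeR called 0 of the 12, and 0% of all genes. Steap1, Steap2 and Steap4 were among the 9, near the floor at means of 0.254, 0.618 and 0.484 CPM over the libraries. They differed by 0.71 (SE 1.56), 0.30 (SE 1.28) and 0.04 (SE 0.97). Steap3, the endosomal reductase that works with the transferrin receptor, was at 18.1 and 15.4 CPM in CTR and 10.4 and 5.89 in OAT-1746 (log2 fold change -1.04, SE 0.27, adjusted p = 0.0695). Transferrin itself, Trf, was at 6.37 and 7.65 CPM in CTR and 9.08 and 13.7 in OAT-1746 (0.70, SE 0.29, adjusted p = 0.133). The lactoferrin gene Ltf and the siderophore binder Lcn2, both also products of neutrophil granules, differed from CTR by 1.05 (SE 0.43) and 0.90 (SE 0.50) in OAT-1746, by -0.35 (SE 0.44) and -0.39 (SE 0.52) in anti-PD-1, and by 0.79 (SE 0.40) and 0.74 (SE 0.47) in COMB. The 2 CTR libraries lay far apart. Ltf was at 5.77 and 17.6 CPM in CTR, 18.7 and 29.8 in OAT-1746, and 20.3, 18.4 and 21.8 in COMB. Lcn2 was at 3.12 and 11.1 CPM in CTR, 8.61 and 18.1 in OAT-1746, and 11.4, 12.1 and 12.2 in COMB. The summed level of 8 neutrophil markers (most abundant Csf3r) was 311 and 461 CPM in CTR, 500.1 and 645 in OAT-1746, 365 and 364 in anti-PD-1, and 409, 408 and 397 in COMB, and its part in these values was not tested. Csf3r alone stood at 249.5 and 328 CPM in CTR and 382 and 475 in OAT-1746, so this sum is mainly that gene. The rest summed to 61.6 and 133 CPM in CTR and 118 and 171 in OAT-1746. It summed to 112 and 86.2 in anti-PD-1 and to 140, 165 and 143 in COMB. Without Csf3r all 3 COMB libraries thus lay above both CTR libraries, as for Ltf and Lcn2. The part of these markers was not tested either. Slc22a17, a receptor for the Lcn2 product, differed by 0.71 (SE 0.34) in OAT-1746, by 0.56 (SE 0.34) in anti-PD-1 and by 0.71 (SE 0.32) in COMB, each against CTR.

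Of the regulators (8 tested of 9), 4 of 8 lay above CTR in OAT-1746 and the median was -0.08. The iron chaperones Pcbp1 and Pcbp2, which hand iron to ferritin, differed by -0.31 (SE 0.17) and -0.55 (SE 0.19, adjusted p = 0.0964) there and by 0.43 (SE 0.15, adjusted p = 0.0783) and 0.48 (SE 0.17, adjusted p = 0.0838) in COMB against OAT-1746. Fbxl5, the ubiquitin ligase subunit that targets iron regulatory proteins, was at 50.9 and 42.9 CPM in CTR, 43.8 and 51.7 in OAT-1746, 55.4 and 51.6 in anti-PD-1, and 45.4, 80.6 and 72.7 in COMB. Herc2, a ubiquitin ligase, was the gene that fell in COMB against OAT-1746 (-0.94, SE 0.27, adjusted p = 0.0459), and was named after its values were seen. Its call was lost without either CTR replicate (adjusted p = 0.0713 and 0.0715), without either anti-PD-1 replicate (0.0616 for each), without OAT-1746 replicate 2 (0.266), without COMB replicates 2 and 3 (0.146 and 0.144) and with DESeq2 size factors (0.0503). Herc2 was also not called when all annotated genes were tested (adjusted p = 0.0546, edgeR) or in a fit of only the groups compared (adjusted p = 0.0938, edgeR). The GC and length correction moved its log2 fold change to -0.58 (adjusted p = 0.0491, edgeR). Of the export and hepcidin list, 2 of 6 were tested. Cp, the ferroxidase ceruloplasmin, differed by 0.20 (SE 0.26) in OAT-1746 against CTR. Bmp6, a ligand that induces hepcidin, was the other, named after its values were seen. It held 2 to 17 counts a library and differed by 1.85 (SE 0.85, adjusted p = 0.167) there. Heph, a membrane-bound relative of Cp, was not tested, with at most 0.524 CPM in a library.

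Of the mitochondrial iron and iron-sulfur cluster list (18 tested of 18), 14 of 18 were lower in OAT-1746 than in CTR, with a median of -0.30. Over all genes, 6207 of 12538 were lower. In COMB against OAT-1746, Glrx5 rose by 1.05 (SE 0.19, adjusted p = 0.0211) and Bola3 by 1.18 (SE 0.26, adjusted p = 0.0287), both assembly factors of iron-sulfur clusters. Bola3 was at 15.7 and 16.4 CPM in CTR and 8.38 and 5.84 in OAT-1746 (-1.17, SE 0.28, adjusted p = 0.063). It differed by -0.56 (SE 0.27, adjusted p = 0.951, edgeR) in anti-PD-1 against CTR. Without OAT-1746 replicate 2, COMB replicate 2 or COMB replicate 3 both calls were lost (adjusted p of 0.109, 0.0879 and 0.102 for Glrx5, and of 0.174, 0.108 and 0.112 for Bola3). Glrx5 was named because it was called, after its values were seen. The mitochondrial iron importers Slc25a37 and Slc25a28 lay the other way in OAT-1746 against CTR, at 0.72 (SE 0.17, adjusted p = 0.0634) and 0.39 (SE 0.17, adjusted p = 0.151). Slc25a37 was at 19.5 and 19.8 CPM in CTR and 28.1 and 36.6 in OAT-1746.

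**Figure D5:**
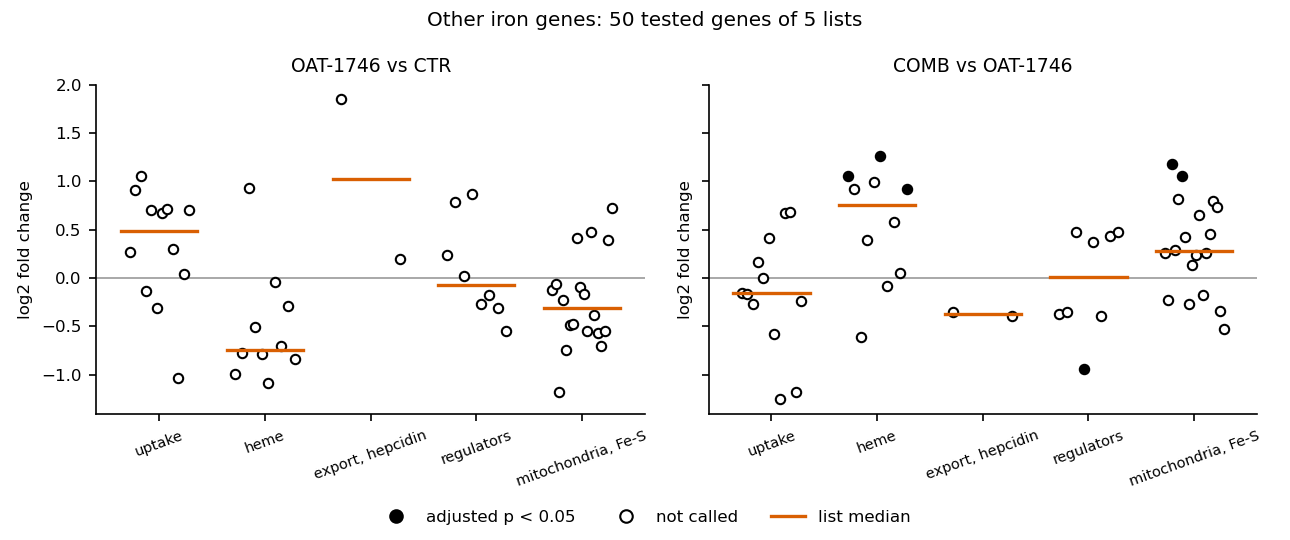
Log2 fold changes of the 50 other iron genes that were tested, by list, in OAT-1746 against CTR (left) and COMB against OAT-1746 (right); points are genes, filled where the adjusted p in edgeR was under 0.05, and orange bars are list medians. The heme list has a median of -0.74 on the left and 0.75 on the right, and both panels use the same OAT-1746 libraries.

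Markers of other cells gave these sums. The NK list of 9 genes (most abundant Gzma) stood at 46.1 and 39.4 CPM in CTR, 72.3 and 19.1 in OAT-1746, 267 and 142 in anti-PD-1, and 56.3, 130 and 141 in COMB. T cell markers (7 genes, most abundant Cd4) lay between 7.16 and 14.5 CPM and B cell markers (4 genes, most abundant Cd79b) between 10.5 and 25.4 in all 9 libraries. Cd4 made up most of the T cell sum; of the 5 T cell genes tested, 4 lay above CTR in anti-PD-1 (median log2 fold change 1.70) and 4 in COMB (1.22), at levels such as 0.36 and 0.235 CPM in CTR and 1.95 and 0.282 in anti-PD-1 for Trac. Erythroid markers (7 genes, most abundant Hbb-bs) lay between 0.845 CPM in anti-PD-1 replicate 2 and 30.8 in OAT-1746 replicate 2, with Slc4a1 at 3 counts or fewer in every library. Border-associated macrophage markers (8 genes, most abundant F13a1) ran from 618 to 887 CPM, dendritic cell markers (6 genes, most abundant Ccr7) from 62.6 to 124 and oligodendrocyte markers (6 genes, most abundant Cnp) from 223 to 391. Endothelial markers (6 genes, most abundant Flt1) ran from 85.3 to 153 CPM. Astrocyte markers (5 genes, most abundant Aldoc) summed to 113 to 120 CPM in the 3 COMB libraries and to 61.9 to 81.5 in the other 6. This gap rested on Aldoc: the rest summed to 72.8, 38.7 and 47.9 CPM in COMB and to 21.4 to 41.4 in the other 6. Gfap lay the other way, at 2.84 to 4.29 CPM in COMB and 5.17 to 11.1 in the other 6. Neuron markers (4 genes, most abundant Snap25) summed to 7.22 and 9.1 CPM in OAT-1746 and to 1.39 to 3.3 in the other 7 libraries. Proliferation genes (10 genes, most abundant Top2a) summed to 136 and 135 CPM in CTR, 67.0 and 20.7 in OAT-1746, 58.1 and 101 in anti-PD-1, and 85.4, 91.8 and 90.2 in COMB. Immediate early genes (10 genes, most abundant Junb) summed to 9631 and 8867 CPM in CTR, 13525 and 20401 in OAT-1746, 8873 and 11403 in anti-PD-1, and 4954, 5489 and 5604 in COMB. Their part in the ferritin values was not tested.

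The tested genes whose levels over the 9 libraries were most like those of each iron gene were found by the root mean square difference of centred log2 CPM. For Fth1 they were Pirb (0.105) and Ehd1 (0.107), where the spread of Fth1 itself was 0.722. For Ftl1 they were Cycs (0.0816) and Rhod (0.0978), the last at a mean of 1.10 CPM, where the spread of Ftl1 was 0.682. Pirb stood at group means of 235, 116.7, 202 and 277 CPM in the order CTR, OAT-1746, antibody alone and COMB, and Cycs at 65.5, 31.7, 77.9 and 74.2. For Slc40a1 they were Slc25a42 (0.0503) and Fam131a (0.0837), for Slc11a1 Bckdk (0.103) and Alg5 (0.112), for Tfrc Cep78 (0.0768) and Gnl3 (0.0915), and for Slc11a2 Ncstn (0.0591) and Ppp1r8 (0.0613). For Ireb2 they were Kat7 (0.0381) and Ccar2 (0.0557), for Aco1 Mospd2 (0.059) and Lonp1 (0.0601), and for Ncoa4 Ubqln4 (0.0747) was among the 2 closest. These were the closest of 12538 candidates over 9 libraries, and nothing is read from them.

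Near-identical sequence can move counts between genes. Of the distinct 50-base stretches in Ftl1 transcripts, 50.9% also occurred in transcripts of 15 other genes, led by Ftl1-ps1. Its symbol marks a pseudogene, but the annotation used here types it as protein-coding, and it was among the genes tested. The Ftl1 level is thus uncertain to the extent that reads were dropped as multiply mapped. Ftl1-ps1 held at most 26 counts in a library. Ncoa4 shared 17.9% with Gm6768, which held at most 29, and Fth1 shared 1.59% with Gm6977, which held at most 6. The other 6 genes shared 0.482% or less. An exon of the antisense gene Gm10252 overlapped Ftl1 and an exon of Gm5475 overlapped Slc11a2, both on the opposite strand, and counting used the strand. On the same strand, Ftl1 overlapped the microRNA gene Gm22133, which held 0 counts in every library.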

How the data were processed

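The authors deposited raw counts per gene, trimmed with Trimmomatic, aligned to mm10 with STAR, with duplicates marked by Picard, and counted with HTSeq as paired, reverse-stranded fragments at a mapping quality of at least 10. The authors tested them with DESeq2. Counts were not normalized before deposit.

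Genes were annotated with GENCODE M21 (GRCm38), which held 53620 of them and lacked 181. The 21890 protein-coding genes were filtered with filterByExpr (minimum count 10), leaving 12538. All 9 libraries entered a single edgeR 4.0.16 quasi-likelihood fit (R 4.3.3) with TMM scaling and a mean per group, with 5 residual degrees of freedom. p-values were adjusted by Benjamini-Hochberg over all genes tested, and the threshold was 0.05. DESeq2 1.42.0 and limma 3.58.1 (voom with sample weights) were alternatives, with other scalings and filters, a replicate block, a GC and length correction, only the groups compared, and each library left out. CPM values used the TMM library sizes, and per-kb values the union of annotated exons.

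The methods state 2 to 3 biological replicates per treatment. Replicate pairs differed by more than sampling noise (chi-square per gene 8.10 to 93.9). The members and gene lists were chosen with earlier results of these data known. Named were the 9 members, 12 fixed iron genes, the 3 other iron genes with the largest fold change against CTR among those with a mean of at least 5 CPM in each of 3 comparisons, and the 2 genes most like each member (log2 CPM, prior count 2). Blvra, Glrx5, Herc2, Bmp6, Hpx, Steap1, Steap2 and Steap4 fall outside this rule and were named after their values were seen. A marker each was taken out of the microglia and erythroid lists after the values were seen, and these and 1 gene most like Ncoa4 are not reported here. PCR duplicates were not collapsed by molecular identifiers, so counting error understates the error of a level.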

Additional observations from a re-analysis of the deposited data

Results flagged for a closer look

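The effect of OAT-1746 differed between mice with and without the antibody for 45 genes by the interaction test in edgeR (1 higher, 44 lower). At an unadjusted p under 0.05 in edgeR, 4 of the 9 iron genes were found, against 26.2% of all genes. The called genes included 0 of the 9 iron genes (also 0 in DESeq2 and 0 in limma voom). The split by direction was 434 higher and 591 lower in DESeq2 and 86 and 342 in limma voom, and it turned to 1648 higher and 1108 lower without OAT-1746 replicate 1. The count was 0 without either CTR replicate, without COMB replicate 2 or 3 and without anti-PD-1 replicate 2, 22 without anti-PD-1 replicate 1, 25 and 2756 without OAT-1746 replicates 2 and 1, and 419 without COMB replicate 1.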

How the results depend on the processing

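Across the alternatives that left out no single library, of which the fit of only the groups compared used fewer than 9 libraries, 564 fold changes of the 9 iron genes kept direction and side of the threshold, 4 passed it newly, 4 no longer passed it and 13 reversed. With a library left out, when a lone library of a group is assumed to vary like the other groups, these were 452, 6, 7 and 21. The cause was not tested unless stated.

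DESeq2 called 1996 genes in OAT-1746 against CTR, 14 in anti-PD-1 against CTR, 35 in COMB against CTR, 47 in COMB against anti-PD-1, 3062 in COMB against OAT-1746, 1025 for the interaction and 2121 for any difference. It called 1 iron gene in OAT-1746 against CTR, 2 in COMB against OAT-1746 and 1 for any difference, and of the wider lists 9, 13 and 4 genes in OAT-1746 against CTR, COMB against OAT-1746 and the interaction. With no low-count filter the counts were 587 in OAT-1746 against CTR, 2 in COMB against CTR, 2 in COMB against anti-PD-1, 146 for the interaction and 361 for any difference, with 2 iron genes in COMB against OAT-1746 and 3 and 2 wider genes in OAT-1746 against CTR and the interaction. limma voom called 2 genes in COMB against CTR, 35 in COMB against anti-PD-1, 428 for the interaction and 396 for any difference, with 2 iron genes in COMB against OAT-1746 and 11 and 2 wider genes there and in the interaction. With only the groups compared, so fewer samples, the counts were 5, 17 and 30 in COMB against CTR, anti-PD-1 and OAT-1746, with 0 iron and 0 wider genes in the last. Library size alone gave 24 genes for the interaction. The GC and length correction gave 44 for any difference and 0 iron genes in COMB against OAT-1746.

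The samples share only a replicate number. Across genes, the difference between replicates 1 and 2 of a group was compared with that of every other group. The correlation of these differences was 0.083 for CTR and OAT-1746, -0.217 for CTR and anti-PD-1, and -0.0979 for CTR and COMB. It was -0.202 for OAT-1746 and anti-PD-1, -0.32 for OAT-1746 and COMB, and 0.0359 for anti-PD-1 and COMB. A replicate block, alone or with the GC and length correction, left 2 and 2 genes in COMB against OAT-1746, 0 for the interaction and 0 for any difference, with 0 iron and 0 wider genes in COMB against OAT-1746. With the block alone, Ftl1 there had a log2 fold change of 1.30 (adjusted p = 0.227, edgeR), against 1.27 without it.

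Fold changes near 0 reversed. In COMB against CTR, Ftl1 was -0.13 with block and GC correction and -0.10 with the GC correction, Slc11a1 -0.0533 and Ireb2 0.0225 with block and GC correction, and Aco1 0.00052 by library size, 0.0035 with at least 10 counts in every library and 0.044 in voom. In COMB against anti-PD-1, voom gave 0.024 for Ftl1, -0.0722 for Slc40a1 and -0.0056 for Ireb2. Ncoa4 was 0.0062 in COMB against OAT-1746 with block and GC correction, and -0.0805 by library size and -0.10 in voom for the interaction. In the OAT-1746 group, library size alone moved Slc11a1 to 484, Aco1 to 53.5 and Ncoa4 to 90.7 CPM, and DESeq2 size factors moved Aco1 to 51.6.

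With a library left out, genes called ran from 0 to 3647 in OAT-1746 against CTR, 0 to 43 in COMB against anti-PD-1, 1 to 4058 in COMB against OAT-1746, 0 to 2756 for the interaction and 0 to 2399 for any difference. Iron genes ran from 0 to 2 in OAT-1746 against CTR, COMB against OAT-1746, the interaction and any difference, and wider genes from 0 to 14, 0 to 17 and 0 to 10 in the first 3. Fold changes ran across 0 for Ftl1 (-0.0044 to 0.22) and Aco1 (-0.39 to 0.0283) in anti-PD-1 against CTR, for Ftl1 (-0.054 to 0.18), Slc11a1 (-0.0782 to 0.25) and Aco1 (-0.23 to 0.19) in COMB against CTR, for Ftl1 (-0.16 to 0.10), Slc40a1 (-0.15 to 0.39), Tfrc (-0.21 to 0.0014), Slc11a2 (-0.0484 to 0.36) and Ireb2 (-0.0135 to 0.15) in COMB against anti-PD-1, for Tfrc (-0.0341 to 0.28) in COMB against OAT-1746 and for Ncoa4 (-0.11 to 0.10) in the interaction.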
